A study of Mus musculus with 11 samples.

Results

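The interferon-stimulated genes described here are 44 mouse genes chosen by name, though with earlier results of these data known. They hold the transcription factors of the interferon response, the ISG15 system and the cytosolic sensors of nucleic acid. The IFIT, OAS, IRG and GBP families and other antiviral or interferon-induced genes make up the rest. The counts held a row for 42 of the 44, and these 42 of 21846 genes are the members followed below. Mx1 and Mx2, antiviral dynamin-like GTPases, were not analysed here. All 42 members passed the filter on low counts in each fit, and none was at 0 counts in every library.

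The members were read in 11 RNA-sequencing libraries of MamBo lines, mammary carcinoma lines made from tumors of FVBhuHER2 female mice, which carry a human HER2 transgene. MamBo89 (HER2 stable, n = 4) came from tumor A, and MamBo43 (HER2 labile, n = 1 untreated) came from tumor B. MamBo43 TRT (n = 2) is MamBo43 after culture with trastuzumab, an antibody against HER2, at 30 µg/ml. The antibody was given either for 60 days or for 30 days and then 30 days without it. HER2 status is taken from the paper, which counts this group as HER2-negative. The paper also reports that a small share of HER2-positive cells stayed detectable under trastuzumab. MamBo38 (HER2 loss, n = 4) was made from a tumor that grew after MamBo43 cells were injected into a mouse, and its cell surface carries no HER2. MamBo89 comprised an untreated library, a library for each of the 2 trastuzumab schedules and an untreated library labelled AG3, taken as the clone that the methods list. MamBo38 comprised 2 untreated libraries and 1 for each schedule. Each line is a single isolate, and nothing in the labels says that libraries of a group came from separate cultures, so p-values measure the spread between these libraries, which may be technical. Tumor and line cannot be told apart for MamBo89 against the others.

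Interferons are secreted proteins that warn cells of infection or of misplaced nucleic acid. Type I and type III interferons act through receptor-bound kinases that switch on a complex holding STAT2 and IRF9, which binds the interferon-stimulated response element (ISRE) of target promoters. Interferon gamma acts through another element, GAS, and many genes of the IRG, GBP and IRF families respond to it. Carcinoma cells can hold many of these genes at a raised level without infection, and several of the products sense nucleic acid or feed back on the pathway.

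Total counts per library ranged from 17040454 to 27127662. A level is given in CPM, the count of a gene scaled to a common library size by the TMM method. A gene was called higher or lower where its log2 fold change was 1 or more in size and its adjusted p under 0.1, by edgeR's quasi-likelihood test and Benjamini-Hochberg adjustment over all genes tested. The lines were checked against marker genes. Summed epithelial markers (Krt8, Krt18, Krt19, Epcam, Cdh1) were at 2289 to 3711 CPM in MamBo89, 3136 in MamBo43, 277 to 1745 in MamBo43 TRT and only 1.25 to 2.46 in MamBo38, so the defining epithelial genes were near 0 in the last line. Fibroblast and mesenchymal markers (5 genes) went the other way, at 76.1 to 156 CPM in MamBo89, 263 in MamBo43, 3094 to 3540 in MamBo43 TRT and 3646 to 5098 in MamBo38. The summed leukocyte markers (9 genes) reached 26.9 to 50.0 CPM in MamBo38 and 1.02 to 16.7 in the other groups, nearly all of it Cd68; Ptprc, Cd3e and Adgre1, which define leukocytes, were at or near 0 in every library. These markers move with the groups, and their part in the results below was not tested. In bulk RNA, fewer cells that express a gene and less RNA per cell cannot be told apart. The labels give 3 of the 4 MamBo38 libraries a library code found nowhere else (the MamBo38-only code) and the fourth, an untreated one, the code of all other libraries (the shared code), so results on MamBo38 are also given with the shared code alone.

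Promoters of 6 members are printed because they carry the groups of the results: Oas1a, Oas3 and Irf7 were among the members that fell most in MamBo38, and Isg15, Ifit3 and Ifi47 led those that rose in MamBo43 after trastuzumab. Each is read 5′ to 3′ on the strand of the gene, from RefSeq for GRCm38.p6, up to the base before the annotated start and as far as 250 bases upstream. Capitals mark matches to the core of the ISRE, searched as GAAA, any 2 bases and GAAA again on either strand, so TTTC, any 2 bases and TTTC when read on the other; adjoining capitals are overlapping matches.
Oas1a: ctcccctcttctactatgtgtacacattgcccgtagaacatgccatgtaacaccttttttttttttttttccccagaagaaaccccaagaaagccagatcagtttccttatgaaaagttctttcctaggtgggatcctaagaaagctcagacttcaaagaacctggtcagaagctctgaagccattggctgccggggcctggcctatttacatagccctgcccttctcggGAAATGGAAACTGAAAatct
Irf7: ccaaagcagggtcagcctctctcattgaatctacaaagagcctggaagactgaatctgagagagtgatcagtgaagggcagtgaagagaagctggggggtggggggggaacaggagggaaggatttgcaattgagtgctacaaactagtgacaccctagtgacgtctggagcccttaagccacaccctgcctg
Oas3: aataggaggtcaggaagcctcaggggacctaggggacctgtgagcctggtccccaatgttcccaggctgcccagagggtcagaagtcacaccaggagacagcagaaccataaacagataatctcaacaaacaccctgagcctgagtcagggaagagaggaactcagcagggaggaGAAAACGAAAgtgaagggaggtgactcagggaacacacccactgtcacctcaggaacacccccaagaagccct
Ifit3: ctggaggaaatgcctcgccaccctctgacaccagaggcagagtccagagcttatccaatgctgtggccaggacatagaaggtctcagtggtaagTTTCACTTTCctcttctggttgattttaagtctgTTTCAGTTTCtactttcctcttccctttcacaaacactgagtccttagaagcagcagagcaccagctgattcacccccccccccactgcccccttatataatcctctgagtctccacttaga
Isg15: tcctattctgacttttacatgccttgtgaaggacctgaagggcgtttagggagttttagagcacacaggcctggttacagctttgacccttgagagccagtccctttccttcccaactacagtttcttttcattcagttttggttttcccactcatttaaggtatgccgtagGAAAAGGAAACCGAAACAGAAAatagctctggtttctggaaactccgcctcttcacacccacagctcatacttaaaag
Ifi47: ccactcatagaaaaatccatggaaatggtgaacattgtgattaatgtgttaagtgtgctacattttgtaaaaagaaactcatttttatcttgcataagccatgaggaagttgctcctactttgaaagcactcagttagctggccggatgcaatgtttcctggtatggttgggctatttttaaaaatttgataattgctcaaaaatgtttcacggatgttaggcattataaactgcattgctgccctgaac
Oas1a lies at chr5:120907526-120907775 on the - strand, Oas3 at chr5:120777662-120777909, Irf7 at chr7:141266482-141266674 and Isg15 at chr4:156200819-156201068, all on the - strand, and Ifit3 at chr19:34583279-34583528 and Ifi47 at chr11:49076337-49076586 on the + strand. Isg15 held 3 overlapping matches, Ifit3 held 2 on the opposite strand, Oas1a held 2 and Oas3 held 1, whereas the windows of Irf7 and Ifi47 held none. Of the 33 members with a RefSeq promoter entry, 15 (45.5%) held the ISRE letters in the 250 upstream bases, against 350 of the 10817 tested genes with an entry (3.24%). The GAS letters TTCNNNGAA were found in 7 of the 33 (21.2%), against 7.05% of the tested genes. A match is a description of letters and not a measured binding site.

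**Figure D1:**
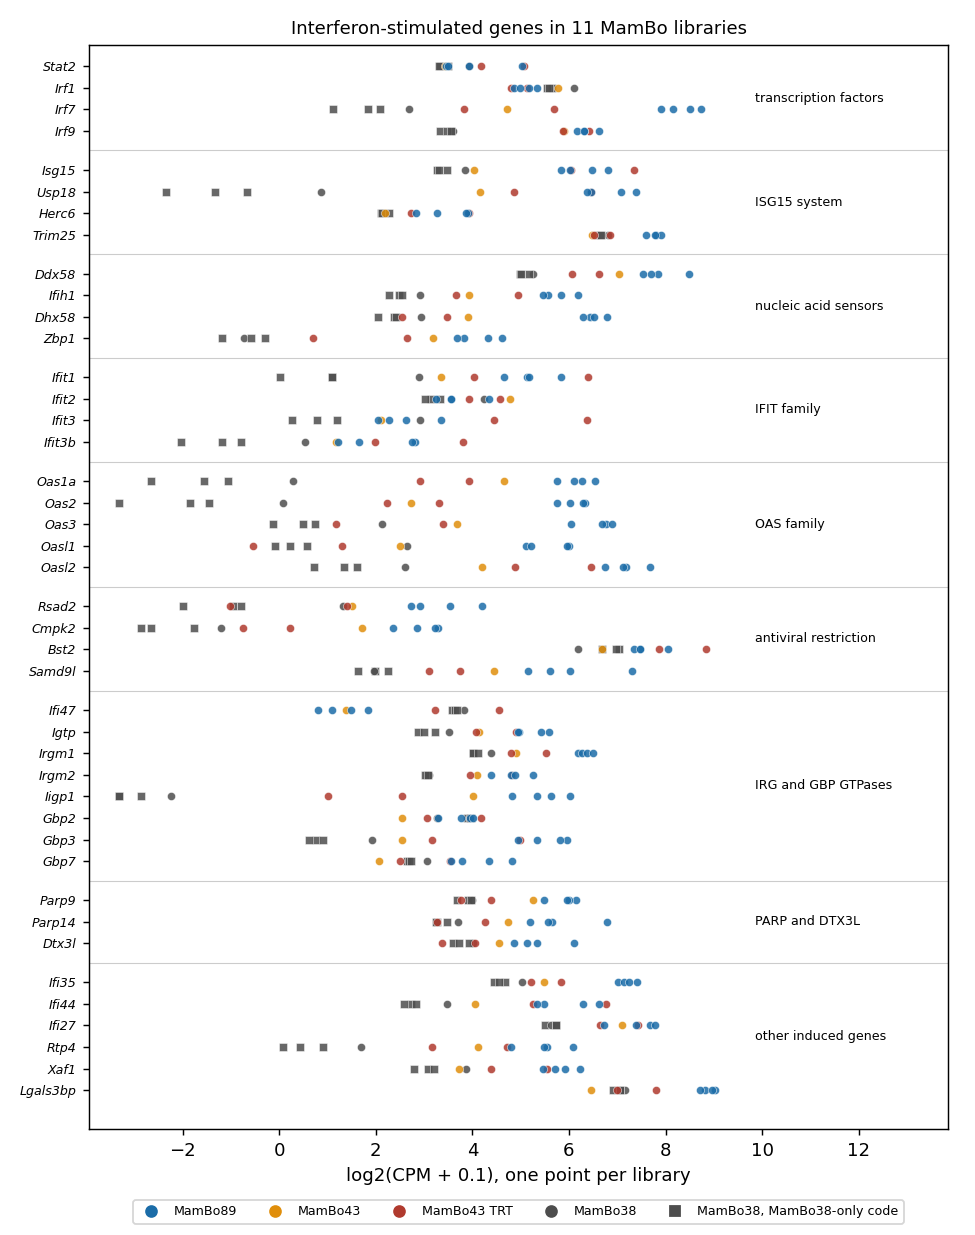
Levels of the 42 members by role, on the x axis as log2(CPM + 0.1), with 1 point per library coloured by group; squares are the 3 MamBo38 libraries with the MamBo38-only code. The MamBo89 points sit to the right for most members, as for Irf7 at 240.1 to 427 CPM, and the MamBo38 points to the left, as for Irf7 at 2.07 to 6.31 CPM, while Ifi47 runs the other way.

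Of the 42 members, 31 had their highest group mean in MamBo89, 8 in MamBo43 TRT, 2 in MamBo43 and 1 in MamBo38. The lowest group mean was in MamBo38 for 32 members, in MamBo43 for 6, in MamBo43 TRT for 3 and in MamBo89 for 1. The sum over the members was 3784, 2856, 4067 and 3302 CPM in the MamBo89 libraries, 1195 in MamBo43, 1210 and 2413 in MamBo43 TRT and 649, 795, 709.6 and 728 in MamBo38. Here and below, MamBo89 values follow the order AG3, untreated, trastuzumab withdrawn, 60 days of trastuzumab. MamBo43 TRT values follow the order withdrawn, 60 days, and MamBo38 values the order untreated with the MamBo38-only code, untreated with the shared code, withdrawn, 60 days.

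MamBo38, which lost HER2, was first compared with MamBo89, which keeps it. Of the 42 members, 35 were called lower in MamBo38, 1 was called higher and 6 were not called. Over all 13782 genes tested, 41.9% were called, 22% as lower and 19.9% as higher, so lower calls took 83.3% of the members and 22% of the background. The median log2 fold change was -2.84 over the members and -0.07 over all tested genes. In 36 of the 42 members every MamBo38 library lay below every MamBo89 library, which held for 30.5% of the tested genes. The calls covered all 5 members of the OAS family, all 4 nucleic acid sensors, all 4 of the ISG15 system, all 3 of the PARP and DTX3L group and all 6 other induced genes. They covered 6 of 8 IRG and GBP GTPases, 3 of 4 restriction genes, 2 of 4 transcription factors and 2 of 4 IFIT genes. With the shared code alone, 1 MamBo38 library remained. The median log2 fold change was then -2.21 over the members and -0.08 over all tested genes.

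**Figure D2:**
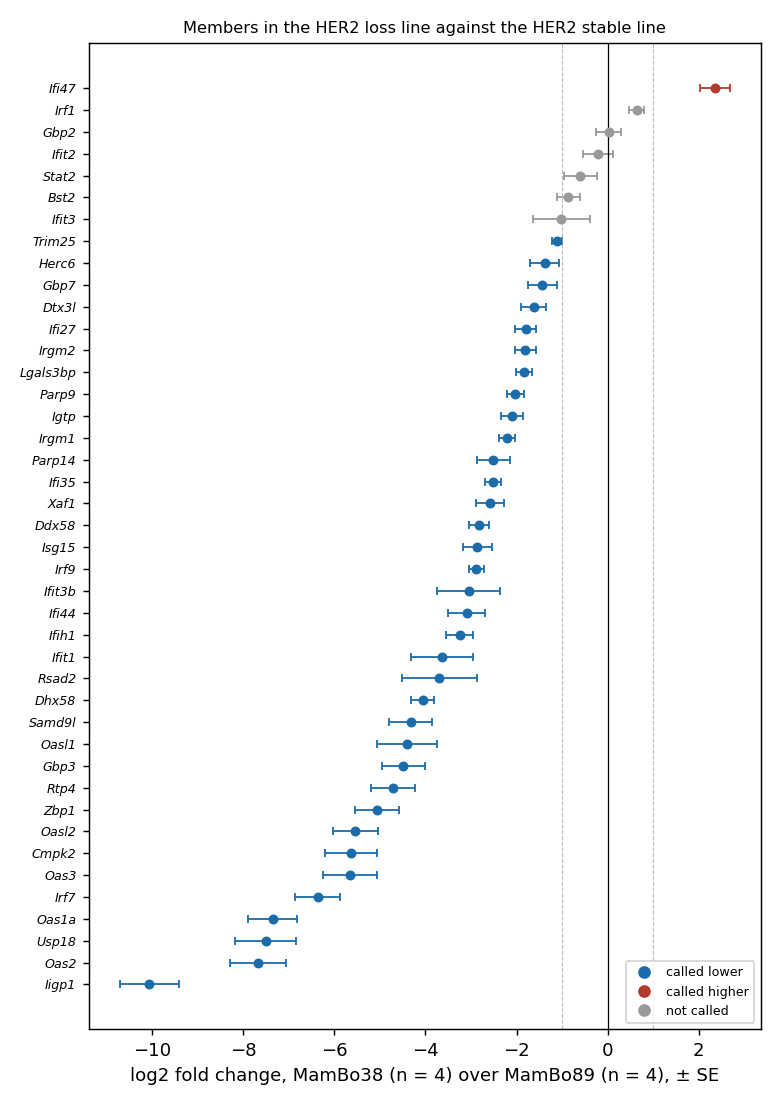
Log2 fold change of each member in MamBo38 (n = 4) over MamBo89 (n = 4) on the x axis, sorted, with bars for the SE; dashed lines mark the fold minimum and colours the call. Of the 42 members, 35 are called lower, from Iigp1 at -10.07 to Trim25 at -1.11, and Ifi47 alone is called higher, at 2.36.

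Among the transcription factors, Irf7 moved most. Irf7, which drives further interferon production, was at 285, 240.1, 427 and 364 CPM in MamBo89, 26.3 in MamBo43, 14.1 and 51.6 in MamBo43 TRT and 2.07, 6.31, 3.46 and 4.14 in MamBo38 (log2 fold change -6.37, SE 0.50, adjusted p 1.76e-06). Every MamBo38 library lay below every MamBo89 library, and both MamBo43 groups lay between. Irf9, the DNA-binding partner in that complex, was at 79.5, 72.01, 97.96 and 79.4 CPM in MamBo89, 59.8 in MamBo43, 58.9 and 85.8 in MamBo43 TRT and 9.96, 11.9, 11.04 and 11.7 in MamBo38 (log2 fold change -2.88, SE 0.16, adjusted p 1.52e-07), so MamBo38 stood apart from all 7 other libraries. Stat2, the other subunit, was not called in this comparison: it was at 32.6, 10.9, 11.2 and 15.04 CPM in MamBo89, 10.7 in MamBo43, 18.005 and 33.3 in MamBo43 TRT and 11.2, 15.2, 10.02 and 9.75 in MamBo38, and the AG3 library was its highest MamBo89 value by far. Irf1, which is induced mainly by interferon gamma, was called in none of the comparisons among the 4 groups. Its levels were 28.9 to 40.1 CPM in MamBo89 and 46.4 to 68.2 in MamBo38, a difference of 0.64 on the log2 scale (adjusted p 0.00552) that fell short of the fold minimum.

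The ISG15 system attaches a ubiquitin-like protein to targets and removes it. Isg15, the modifier itself, was at 88.9, 64.9, 113 and 57.03 CPM in MamBo89, 16.3 in MamBo43, 65.9 and 162 in MamBo43 TRT and 9.53, 14.3, 10.98 and 9.83 in MamBo38 (log2 fold change -2.86, SE 0.32, adjusted p 2.17e-05). Usp18, which removes ISG15 and also damps signalling at the type I receptor, was at 135, 87.4, 167 and 83.2 CPM in MamBo89, 17.6 in MamBo43, 29.1 and 87.4 in MamBo43 TRT and 0.0963, 1.73, 0.298 and 0.527 in MamBo38 (log2 fold change -7.51, SE 0.67, adjusted p 4.72e-06). Its MamBo38 counts were only 2, 31, 5 and 14, against 1522 to 2870 in MamBo89. Herc6, the main ISG15 ligase of the mouse, shares 11.3% of its 75-base windows with other loci and was at 7.002, 9.49, 15.03 and 14.5 CPM in MamBo89, 4.46 in MamBo43, 6.52 and 15.2 in MamBo43 TRT and 4.24, 4.41, 4.296 and 4.74 in MamBo38 (log2 fold change -1.38, SE 0.32, adjusted p 0.003099); with the shared code alone its adjusted p was 0.138. Trim25, a ubiquitin ligase that acts on the RNA sensor RIG-I, was at 223, 194, 238 and 221 CPM in MamBo89, 89.2 in MamBo43, 91.6 and 115 in MamBo43 TRT and 93.4, 112, 99.5 and 101 in MamBo38 (log2 fold change -1.11, SE 0.11, adjusted p 1.24e-05). The fold of Trim25 was the smallest of the 35 lower calls, and with the shared code alone or with the code as a covariate it fell under the fold minimum.

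The nucleic acid sensors were all lower in MamBo38, with no overlap between the groups. Ddx58, the RNA sensor RIG-I, was at 359, 185, 229 and 207 CPM in MamBo89, 131 in MamBo43, 66.9 and 98.1 in MamBo43 TRT and 31.5, 37.999, 32.2 and 36.1 in MamBo38 (log2 fold change -2.83, SE 0.22, adjusted p 1.94e-06). Ifih1, the RNA sensor MDA5, was at 57.3, 47.3, 73.2 and 44.2 CPM in MamBo89, 15.2 in MamBo43, 12.6 and 30.8 in MamBo43 TRT and 5.49, 7.48, 4.71 and 5.69 in MamBo38 (log2 fold change -3.25, SE 0.30, adjusted p 5.64e-06). For both sensors the MamBo43 libraries lay between the lines. Dhx58, the related LGP2, was at 86.99, 78.3, 109.7 and 91.8 CPM in MamBo89, 15.001 in MamBo43, 5.74 and 10.98 in MamBo43 TRT and 4.04, 7.59, 5.07 and 5.27 in MamBo38 (log2 fold change -4.06, SE 0.26, adjusted p 4.11e-07). Zbp1, which binds Z-form nucleic acid and can trigger cell death, was at 24.4, 14.1, 19.8 and 12.7 CPM in MamBo89, 8.97 in MamBo43, 1.52 and 6.12 in MamBo43 TRT and 0.337, 0.502, 0.716 and 0.565 in MamBo38 (log2 fold change -5.06, SE 0.48, adjusted p 7.01e-06), where it rested on 7 to 15 counts a library.

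All 5 OAS members fell in MamBo38. OAS enzymes make oligoadenylates that switch on RNase L, and the members lie on chromosome 5 of GRCm38. Oas1a was at 76.6, 53.4, 93.2 and 68.9 CPM in MamBo89, 25.1 in MamBo43, 7.41 and 15.2 in MamBo43 TRT and 0.241, 1.12, 0.0597 and 0.377 in MamBo38 (log2 fold change -7.35, SE 0.54, adjusted p 1.11e-06). Of its 75-base windows, 47.6% also occur in other loci, chiefly Oas1g, so counts may be split between the copies. Oas1g, which is no member, fell from 238 to 461 counts in MamBo89 to 0 or 1 in MamBo38. Oas2 was at 65.1, 53.5, 80.7 and 78.6 CPM in MamBo89, 6.54 in MamBo43, 4.61 and 9.84 in MamBo43 TRT and 0, 0.949, 0.179 and 0.264 in MamBo38 (log2 fold change -7.67, SE 0.61, adjusted p 2.02e-06). Oas3 was at 109.5, 66.2, 119 and 102 CPM in MamBo89, 12.7 in MamBo43, 2.16 and 10.4 in MamBo43 TRT and 0.818, 4.24, 1.31 and 1.58 in MamBo38 (log2 fold change -5.66, SE 0.60, adjusted p 1.53e-05). The untreated shared-code library had the highest of the MamBo38 levels for all 3. Oasl1 was at 63.9, 34.6, 62.4 and 36.9 CPM in MamBo89, 5.52 in MamBo43, 0.589 and 2.37 in MamBo43 TRT and 1.06, 6.14, 0.835 and 1.39 in MamBo38 (log2 fold change -4.4, SE 0.66, adjusted p 0.000197). Oasl2 was at 144, 107, 205 and 139.8 CPM in MamBo89, 18.4 in MamBo43, 29.4 and 87.4 in MamBo43 TRT and 1.54, 5.97, 2.45 and 2.94 in MamBo38 (log2 fold change -5.54, SE 0.49, adjusted p 4.48e-06). Oasl1 and Oasl2 parted within MamBo43: after trastuzumab Oasl1 was below the untreated library in both schedules and Oasl2 above it, though neither difference was called.

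The IFIT genes, whose products bind foreign RNA, lie side by side on chromosome 19 between 34550694 and 34650009, and they did not move together. Ifit1 was at 34.8, 25.2, 57.02 and 35.9 CPM in MamBo89, 10.03 in MamBo43, 16.4 and 84.2 in MamBo43 TRT and 0.915, 7.37, 2.03 and 2.03 in MamBo38 (log2 fold change -3.64, SE 0.68, adjusted p 0.000817). Ifit3b was at 2.24, 3.04, 6.93 and 6.67 CPM in MamBo89, 2.15 in MamBo43, 3.88 and 13.9 in MamBo43 TRT and 0.144, 1.34, 0.477 and 0.339 in MamBo38 (log2 fold change -3.05, SE 0.69, adjusted p 0.00282). Both were called lower, and Ifit3b lost its call with the shared code alone (adjusted p 0.195). Ifit2, at 9.38, 11.7, 20.3 and 11.6 CPM in MamBo89, 27.5 in MamBo43, 15.2 and 23.7 in MamBo43 TRT and 8.71, 18.9, 8.05 and 9.98 in MamBo38, had a log2 fold change of -0.22 (SE 0.33) with overlapping groups. Ifit3, at 4.72, 4.01, 10.1 and 6.07 CPM in MamBo89, 4.19 in MamBo43, 21.8 and 83.3 in MamBo43 TRT and 1.11, 7.42, 1.61 and 2.18 in MamBo38, also overlapped between MamBo38 and MamBo89 (log2 fold change -1.02, SE 0.62, adjusted p 0.175). Ifit3 and Ifit3b share 41.1% and 35.7% of their windows, mostly with each other, so the split of counts between these copies is uncertain.

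Of the restriction genes, Rsad2 (viperin) and Cmpk2, a mitochondrial nucleotide kinase, are neighbours on chromosome 12 and were at 18.2 CPM or less in every library. Rsad2 was at 11.6, 7.46, 18.2 and 6.56 CPM in MamBo89, 2.74 in MamBo43, 0.392 and 2.53 in MamBo43 TRT and 0.481, 2.399, 0.418 and 0.151 in MamBo38 (log2 fold change -3.69, SE 0.82, adjusted p 0.002502); with the shared code alone the adjusted p was 0.146. Cmpk2 was at 9.68, 5.02, 9.26 and 7.11 CPM in MamBo89, 3.17 in MamBo43, 0.491 and 1.07 in MamBo43 TRT and 0.193, 0.335, 0.0597 and 0.0377 in MamBo38 (log2 fold change -5.64, SE 0.56, adjusted p 1.02e-05). The MamBo38 libraries held 12 Cmpk2 counts in all, against 597 in MamBo89. Samd9l, which restricts viral translation, was at 159, 35.7, 65.1 and 48.6 CPM in MamBo89, 21.7 in MamBo43, 8.54 and 13.2 in MamBo43 TRT and 3.85, 3.79, 2.98 and 4.63 in MamBo38 (log2 fold change -4.33, SE 0.47, adjusted p 1.89e-05), with the AG3 library highest. Bst2, the tetherin that holds virions at the cell surface, was at 179, 163, 266 and 177 CPM in MamBo89, 103 in MamBo43, 235 and 456 in MamBo43 TRT and 102, 72.9, 131 and 125 in MamBo38. Its groups did not overlap, but its log2 fold change of -0.86 (adjusted p 0.0124) stayed under the fold minimum.

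The IRG and GBP GTPases, which act on the vacuoles of intracellular pathogens, held both the deepest fall and the single rise. Iigp1 was at 28.3, 40.3, 64.5 and 49.6 CPM in MamBo89, 15.98 in MamBo43, 1.91 and 5.703 in MamBo43 TRT and 0, 0.112, 0 and 0.0377 in MamBo38 (log2 fold change -10.07, SE 0.65, adjusted p 4.57e-07). The 4 MamBo38 libraries held 3 Iigp1 counts against 3469 in MamBo89, a ratio of 1220 with a 95% counting interval of 417 to 5919. Ifi47 ran the other way, at 3.501, 2.72, 2.04 and 1.64 CPM in MamBo89, 2.51 in MamBo43, 9.22 and 23.2 in MamBo43 TRT and 11.8, 14.1, 12.4 and 12.8 in MamBo38 (log2 fold change 2.36, SE 0.32, adjusted p 0.000103). The highest MamBo89 library stood far below the lowest MamBo38 library for Ifi47. Igtp was at 42.4, 31.3, 48.1 and 30.7 CPM in MamBo89, 17.5 in MamBo43, 16.8 and 29.8 in MamBo43 TRT and 7.22, 11.3, 9.25 and 7.91 in MamBo38 (log2 fold change -2.1, SE 0.24, adjusted p 2.81e-05). Irgm1 was at 73.2, 77.5, 83.2 and 90.3 CPM in MamBo89, 29.8 in MamBo43, 27.8 and 46.04 in MamBo43 TRT and 15.9, 20.9, 15.9 and 17.2 in MamBo38 (log2 fold change -2.21, SE 0.17, adjusted p 1.80e-06). Irgm2 was at 37.8, 20.8, 27.7 and 29.2 CPM in MamBo89, 17.1 in MamBo43, 15.3 and 28.3 in MamBo43 TRT and 8.23, 8.48, 7.99 and 8.32 in MamBo38 (log2 fold change -1.81, SE 0.23, adjusted p 5.76e-05). These 3 GTPases were lower in every MamBo38 library than in any MamBo89 library. Igtp and Irgm2 overlap on chromosome 11, so their counts are not fully separate.

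Of the 3 GBP members on chromosome 3, Gbp3 and Gbp7 were called lower in MamBo38 and Gbp2 was not called. Gbp3 was at 62.2, 30.9, 56.03 and 40.5 CPM in MamBo89, 5.76 in MamBo43, 8.88 and 31.4 in MamBo43 TRT and 1.59, 3.68, 1.43 and 1.77 in MamBo38 (log2 fold change -4.49, SE 0.47, adjusted p 1.56e-05). Gbp7, which shares 11.3% of its windows with other loci, was at 28.2, 11.7, 20.1 and 13.7 CPM in MamBo89, 4.11 in MamBo43, 5.54 and 11.5 in MamBo43 TRT and 6.16, 8.26, 6.32 and 6.55 in MamBo38 (log2 fold change -1.43, SE 0.32, adjusted p 0.00253), a call lost with the shared code alone (adjusted p 0.187). Gbp2 was at 15.3, 9.72, 16.02 and 13.4 CPM in MamBo89, 5.76 in MamBo43, 8.24 and 18.1 in MamBo43 TRT and 15.6, 9.54, 14.7 and 15.4 in MamBo38, with overlapping groups and a log2 fold change of 0.03 (SE 0.27).

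PARP9 and DTX3L work as a pair in ADP-ribosylation and ubiquitination, and PARP14 is a related enzyme. Parp9 was at 70.8, 44.4, 63.7 and 62.4 CPM in MamBo89, 38.3 in MamBo43, 13.5 and 20.9 in MamBo43 TRT and 14.8, 15.8, 12.7 and 15.7 in MamBo38 (log2 fold change -2.03, SE 0.19, adjusted p 5.51e-06). Dtx3l was at 68.9, 28.98, 35.1 and 40.3 CPM in MamBo89, 23.3 in MamBo43, 10.3 and 16.6 in MamBo43 TRT and 12.1, 16.01, 13.1 and 15.2 in MamBo38 (log2 fold change -1.62, SE 0.27, adjusted p 0.000419). The ends of these genes overlap on opposite strands of chromosome 16, and the library kit does not mark strand, so reads from the overlap cannot be told apart. Parp14 was at 109.6, 36.3, 50.4 and 47.1 CPM in MamBo89, 26.4 in MamBo43, 9.47 and 18.98 in MamBo43 TRT and 9.53, 12.8, 9.37 and 10.96 in MamBo38 (log2 fold change -2.51, SE 0.36, adjusted p 0.000131). For all 3 the withdrawn MamBo43 TRT library lay within or below the range of MamBo38.

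All 6 other induced genes were lower in MamBo38 than in MamBo89. Ifi35 was at 130.2, 140.1, 169 and 151 CPM in MamBo89, 44.7 in MamBo43, 37.2 and 57.3 in MamBo43 TRT and 21.8, 32.5, 25.5 and 23.5 in MamBo38 (log2 fold change -2.52, SE 0.18, adjusted p 9.01e-07). Ifi44 was at 77.9, 44.8, 98.5 and 40.1 CPM in MamBo89, 16.5 in MamBo43, 37.9 and 109 in MamBo43 TRT and 6.55, 11.05, 5.91 and 7.04 in MamBo38 (log2 fold change -3.1, SE 0.41, adjusted p 7.78e-05). For Ifi35 the untreated MamBo43 level lay between those of the treated libraries, whereas Ifi44 was higher in both treated ones. Ifi27 was at 106, 205, 166 and 221 CPM in MamBo89, 137 in MamBo43, 100.2 and 171 in MamBo43 TRT and 45.2, 49.3, 53.2 and 53.2 in MamBo38 (log2 fold change -1.8, SE 0.24, adjusted p 7.39e-05). Rtp4, a chaperone of membrane receptors with 10.5% of its windows shared, was at 67.8, 27.7, 46.9 and 44.5 CPM in MamBo89, 17.2 in MamBo43, 8.88 and 26.3 in MamBo43 TRT and 0.963, 3.12, 1.25 and 1.77 in MamBo38 (log2 fold change -4.72, SE 0.48, adjusted p 1.26e-05). Both kept MamBo43 well above MamBo38. Xaf1, a pro-apoptotic protein, was at 60.2, 44.04, 74.6 and 52.5 CPM in MamBo89, 13.04 in MamBo43, 20.8 and 46.7 in MamBo43 TRT and 6.79, 14.4, 8.41 and 9.11 in MamBo38 (log2 fold change -2.58, SE 0.31, adjusted p 4.00e-05). Lgals3bp, a secreted glycoprotein, was at 523, 449.7, 499 and 418 CPM in MamBo89, 87.6 in MamBo43, 127 and 224 in MamBo43 TRT and 121, 143, 132 and 133 in MamBo38 (log2 fold change -1.84, SE 0.17, adjusted p 5.87e-06). For Lgals3bp the untreated MamBo43 library, not MamBo38, was the lowest of all.

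Scaled by exon length, as mean CPM per kilobase, the most abundant members in MamBo89 were Bst2 at 217, Lgals3bp at 166, Ifi27 at 119, Isg15 at 107 and Irf7 at 87.2. In MamBo38 the same scale gave Bst2 at 119, Lgals3bp at 46.5, Ifi27 at 34.2, Isg15 at 14.8 and Irf7 at 1.06 CPM per kilobase. Bst2 thus stood first in both lines, and Irf7 had by far the largest fall of these 5.

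MamBo43 before and after trastuzumab gave a mixed pattern rather than a fall. Of the 42 members, 9 were called higher in MamBo43 TRT and 3 lower, and 30 were not called. Over all tested genes 29.1% were called, 13.6% as higher and 15.5% as lower, so the members' share of 28.6% was near the background, with 21.4% higher and 7.14% lower. Isg15 (log2 fold change 2.81, SE 0.59, adjusted p 0.00578), Ifit3 (log2 fold change 3.65, SE 1.24, adjusted p 0.0467), Ifi47 (log2 fold change 2.69, SE 0.61, adjusted p 0.00834), Ifi44 (log2 fold change 2.16, SE 0.72, adjusted p 0.0444) and Bst2 (log2 fold change 1.74, SE 0.48, adjusted p 0.0196) rose, all at levels given above. Gbp3 (1.81), Xaf1 (1.37), Gbp2 (1.2) and Lgals3bp (1.0) rose by less on the log2 scale, with adjusted p between 0.0277 and 0.0985. Iigp1 (log2 fold change -2.06, SE 0.61, adjusted p 0.0275), Cmpk2 (log2 fold change -2.0, SE 0.73, adjusted p 0.0605) and Parp9 (log2 fold change -1.15, SE 0.30, adjusted p 0.0156) fell. No member of the OAS family, the nucleic acid sensors or the transcription factors was called. Oas1a, for instance, was at 25.1 CPM before and 7.41 and 15.2 after (log2 fold change -1.15, SE 0.63, adjusted p 0.195). The single untreated library was assumed to vary like the other groups. The balance depended on which MamBo43 TRT library was left out, with 1 remaining each time. The median log2 fold change over the members was -0.21 without the 60-day library and 0.60 without the withdrawn library. Over all tested genes it was 0 and -0.04. Fitted on the 3 MamBo43 libraries alone, 7 members (16.7%) were called, against 31.1% of tested genes. Over 18 alternative settings the call of Gbp3 was lost in 12 and that of Gbp2 in 11, whereas those of Isg15, Ifi47 and Bst2 were lost in none.

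**Figure D3:**
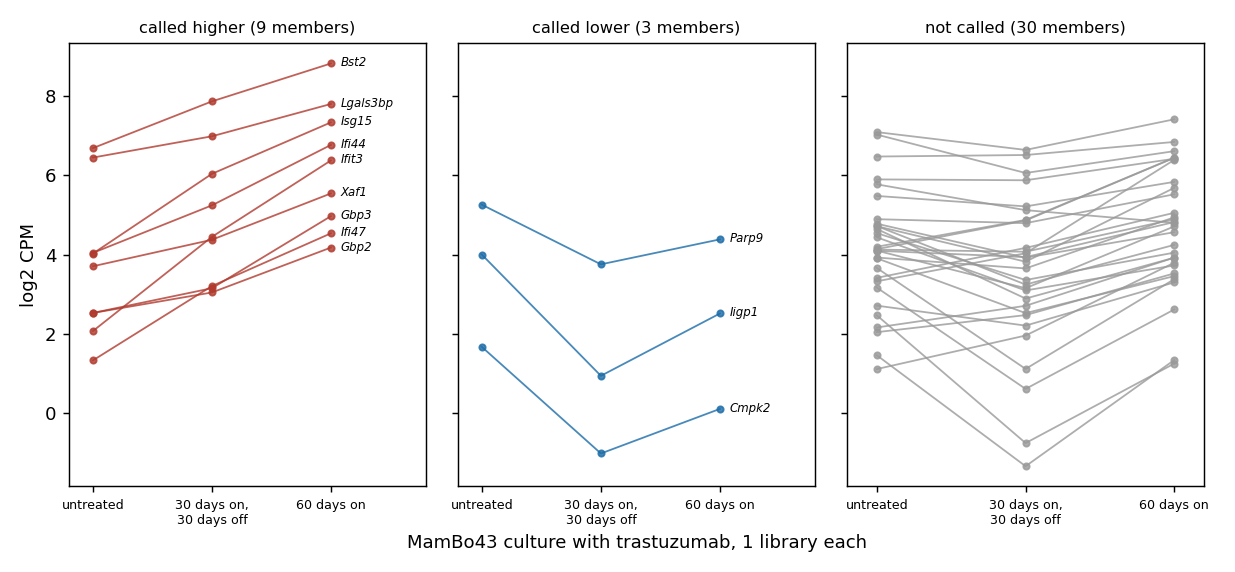
Log2 CPM of the members in the 3 MamBo43 libraries (untreated, trastuzumab withdrawn, 60 days), with 1 line per member joining the libraries and panels by call. The 9 members called higher rise in both treated libraries, the 3 called lower dip in the withdrawn library and lie higher at 60 days, and 21 of the 30 others have the same shape.

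The 2 MamBo43 TRT libraries differed from each other over nearly the whole module. Of the 42 members, 41 had a higher CPM at 60 days than after withdrawal, Irf1 being the exception at 27.9 against 34.9 CPM, whereas 50% of all tested genes were higher at 60 days. The median ratio of 60 days to withdrawn was 2.16 over the members and 0.9998 over all tested genes. Each schedule is 1 library, so this difference has no replicate check. Summed epithelial markers differed between the same libraries, at 1745 CPM after withdrawal and 277 at 60 days, and myoepithelial markers at 114 and 622 CPM; their part in the difference was not tested.

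Untreated MamBo43, the HER2 labile line, held less of the module than MamBo89, the HER2 stable line. In MamBo43 against MamBo89, both HER2-positive, 19 members were called lower and none higher, where 7.86% of tested genes were called lower and 11% higher (18.9% in all). Of the 4 MamBo89 libraries 2 had been given trastuzumab. Set against the 2 untreated ones alone, with no test, MamBo43 lay below both for 38 members, above both for 2 and between for 2. The share of all tested genes was not counted for these 2 libraries. Against all 4 MamBo89 libraries, MamBo43 lay below every one for 37 members and above every one for 2. Of all tested genes, 30.5% lay below and 30% above. DESeq2 called 23 members lower and none higher, where it called 19.6% of tested genes. At an unadjusted p under 0.05 edgeR had 25 members lower and 1, Irf1, higher, where 33.8% of tested genes passed. The largest falls were those of Irf7 (log2 fold change -3.64, SE 0.79, adjusted p 0.00945), Oas2 (log2 fold change -3.41, SE 0.84, adjusted p 0.0172), Oasl1 (log2 fold change -3.16, SE 1.12, adjusted p 0.0746), Gbp3 (log2 fold change -3.04, SE 0.79, adjusted p 0.0221) and Oasl2 (log2 fold change -3.02, SE 0.78, adjusted p 0.0213). Dhx58 (-2.61), Oas3 (-2.97), Usp18 (-2.75) and Lgals3bp (-2.43) followed on the log2 scale. Oas1a was not called, at 25.1 CPM against 53.4 to 93.2 (log2 fold change -1.54, SE 0.66, adjusted p 0.128). Ifi47, the member called higher in MamBo38, stood at 2.51 CPM inside the MamBo89 range. No IFIT, PARP and DTX3L or restriction gene was called. MamBo43 is a single library and of another tumor than MamBo89.

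Within the lineage of tumor B, MamBo38 was compared with the untreated MamBo43 from which it descends. Here 21 members were called lower and 2 higher, where 18.5% of tested genes were called lower and 17.4% higher (35.9% in all). With the library code as a covariate, 33.3% of the members were called, against 34.9% of tested genes. Iigp1 (log2 fold change -8.55, SE 0.73, adjusted p 1.03e-05), Oas1a (log2 fold change -5.81, SE 0.60, adjusted p 3.51e-05), Usp18 (log2 fold change -4.76, SE 0.76, adjusted p 0.000598), Cmpk2 (log2 fold change -4.35, SE 0.67, adjusted p 0.000516), Oas2 (log2 fold change -4.27, SE 0.72, adjusted p 0.000889) and Zbp1 (log2 fold change -4.07, SE 0.57, adjusted p 0.000258) fell most. Ifi47 (log2 fold change 2.35, SE 0.57, adjusted p 0.00759) and Gbp2 (log2 fold change 1.26, SE 0.48, adjusted p 0.0541) rose. For Iigp1 the ratio of MamBo43 to MamBo38 was 437, with a counting interval of 148 to 2127. Isg15 was at 16.3 CPM in MamBo43 and 9.53 to 14.3 in MamBo38 (log2 fold change -0.55, SE 0.46, adjusted p 0.363), and this modifier was not called. With the shared code alone, 1 library stood against 1, and 10 members were called lower and 1 higher, 26.2% in all against 29.4% of tested genes.

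MamBo43 TRT and MamBo38, both counted as HER2-negative, were far apart. Of the 42 members, 28 were called higher in MamBo43 TRT and none lower, where 10.2% of tested genes were called higher and 10.2% lower (20.4% in all), and DESeq2 called 28 higher and none lower. Of all tested genes DESeq2 called 20.5%. At an unadjusted p under 0.05 edgeR had 29 members higher and 1, Irf1, lower, where 41.2% of tested genes passed. Iigp1 (log2 fold change 6.5, SE 0.73, adjusted p 0.000172), Usp18 (log2 fold change 6.49, SE 0.69, adjusted p 0.000123), Oas1a (log2 fold change 4.66, SE 0.55, adjusted p 0.0002399), Oas2 (log2 fold change 4.42, SE 0.63, adjusted p 0.000772), Oasl2 (log2 fold change 4.19, SE 0.50, adjusted p 0.000263) and Ifit3 (log2 fold change 4.1, SE 0.72, adjusted p 0.00241) led. For Iigp1 the counting interval of the ratio, 111, was 37.2 to 541. Ifi47 and Gbp2 overlapped between the groups, at 0.35 and -0.07 on the log2 scale, as did all 3 of the PARP and DTX3L group. With the shared code alone, which leaves 1 MamBo38 library, the median log2 fold change was 1.26 over the members and 0.03 over all tested genes. Without the 60-day library, which leaves 1 MamBo43 TRT library, it was 0.98 and 0. The comparisons in the last 5 paragraphs share libraries, so their counts are not separate evidence.

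Pooled by HER2 status, the 6 HER2-negative libraries (MamBo38 and MamBo43 TRT) were set against the 5 HER2-positive ones (MamBo89 and MamBo43). Of the members, 28 were called lower and 1, Ifi47, higher (log2 fold change 2.48, SE 0.29, adjusted p 5.31e-05), where 17% of the 12364 tested genes were called lower and 15.8% higher (32.8% in all). The groups did not overlap for 12 members that were lower, against 17.3% of tested genes. Dhx58 was at 4.04 (lowest), 5.51 (median) and 10.98 CPM (highest) in the HER2-negative and 15.001 (lowest), 86.99 (median) and 109.7 CPM (highest) in the HER2-positive libraries (log2 fold change -3.57, SE 0.45, adjusted p 8.06e-05). Oas3 (log2 fold change -4.58, SE 0.76, adjusted p 0.000482), Samd9l (log2 fold change -3.41, SE 0.57, adjusted p 0.000488), Parp9 (log2 fold change -1.85, SE 0.19, adjusted p 2.37e-05) and Cmpk2 (log2 fold change -4.19, SE 0.72, adjusted p 0.000616) were also lower without overlap. Irf7, at 2.07 (lowest), 5.22 (median) and 51.6 CPM (highest) in the HER2-negative and 26.3 (lowest), 285 (median) and 427 CPM (highest) in the HER2-positive libraries, overlapped between the groups (log2 fold change -4.3, SE 0.94, adjusted p 0.002896). All MamBo89 libraries are of tumor A, and with the tumor of origin as a covariate 5 members were called lower and 2 higher, 16.7% in all against 26.5% of tested genes.

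Trastuzumab was also given to MamBo89 and MamBo38. Within MamBo89, no gene of the 13782 tested was called by edgeR between the 2 treated libraries and the untreated one (0% called), though 186 genes, none of them members, had an unadjusted p under 0.05; DESeq2 called 3 genes and none of the members. Of the members 39 were higher and 3 lower in the treated libraries, where 46.7% of tested genes were higher, at a median log2 fold change of 0.50 against -0.0048 over all tested genes. Irf7, for example, was at 427 and 364 CPM in treated and 240.1 CPM in untreated MamBo89. Within MamBo38, compared in the libraries with the MamBo38-only code, edgeR also called no gene (0% called), with 75 genes, again no member, at an unadjusted p under 0.05, and DESeq2 called none. There 33 members were higher and 9 lower, where 51.8% of tested genes were higher, at a median of 0.12. With 1 untreated library on each side, neither count shows that levels were alike.

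The AG3 library was compared with the other 3 MamBo89 libraries, and 3 members (7.14%) were called higher and none lower, where 8.64% of tested genes were called higher and 8.21% lower (16.9% in all), so the members were called no more often than other genes. AG3 is 1 library, and the spread in this fit, as in those of trastuzumab within MamBo89 and MamBo38, came from 3 pairs of libraries that differed in trastuzumab schedule (3 residual degrees of freedom). At an unadjusted p under 0.05 by edgeR, 5 members were higher and 1, Ifi27, was lower, where 39.1% of tested genes passed. DESeq2 called no member lower. The 3 were Samd9l (log2 fold change 1.71, SE 0.29, adjusted p 0.0112), Stat2 (log2 fold change 1.4, SE 0.33, adjusted p 0.0277) and Parp14 (log2 fold change 1.31, SE 0.32, adjusted p 0.0295). Within MamBo38 the untreated shared-code library lay above all 3 others for 36 of the 42 members and below all 3 for Bst2 and Gbp2, where 39.9% and 34.8% of tested genes did so. Its members were at a median of 1.42 times the mean of the others. Code and library cannot be told apart there, and the other untreated MamBo38 library had the lowest level of all 4 for Irf7 and Usp18.

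The other genes of the interferon pathway were read from a list of 72, of which 71 had a row and 59 were tested. Of the 10 ligand genes, only Ifnb1, the interferon beta gene, was tested. It had 9, 2, 26 and 15 counts in the MamBo89 libraries (0.438, 0.0921, 1.51 and 0.8202 CPM) and 0 counts in all 7 libraries of the other groups, where a count of 0 allows up to 3. Ifna1, Ifna2, Ifna5, Ifnl2, Ifnl3 and Ifng had no count in any library, and Ifna4, Ifne and Ifnk had at most 4. Detection of interferon beta RNA thus coincided with the line whose members were highest, at levels of 1.51 CPM or less.

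Of the 6 receptor genes, Ifnlr1 alone was at or near 0 in a line. Ifnar1 was at 48.9 to 60.3 CPM in MamBo89 and 64.5 to 67.8 in MamBo38, and Ifnar2 at 24.0 to 26.3 and 42.2 to 45.6 CPM, and neither type I receptor gene was called. Ifnlr1, the specific chain of the type III receptor, was at 8.801, 7.92, 7.92 and 14.1 CPM in MamBo89, 11.2 in MamBo43, 2.06 and 0.689 in MamBo43 TRT and 0.0963, 0, 0.119 and 0 in MamBo38 (log2 fold change -7.45, SE 0.68, adjusted p 5.43e-06). It also fell in MamBo43 after trastuzumab (log2 fold change -3.03, SE 0.74, adjusted p 0.0118), as did Il10rb (log2 fold change -1.83, SE 0.24, adjusted p 0.000584), Ifngr1 (log2 fold change -1.29, SE 0.27, adjusted p 0.00606) and Ifngr2 (log2 fold change -1.08, SE 0.25, adjusted p 0.00901).

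Of the transcription factors and sensors outside the members, Irf3, Tlr3 and Tmem173 fell in MamBo38 against MamBo89: Irf3, which starts interferon beta transcription, by 2.13 on the log2 scale, and Tlr3, an endosomal sensor of double-stranded RNA, by 3.81. Tmem173, the STING adaptor of DNA sensing, fell by 1.29 in MamBo38 against MamBo89 and by 2.31 in MamBo43 after trastuzumab. Tlr3 was at 91.9, 65.01, 78.6 and 54.8 CPM in MamBo89, 73.8 in MamBo43, 18.6 and 10.3 in MamBo43 TRT and 5.49, 4.799, 4.77 and 5.57 in MamBo38, so both HER2-negative groups lay below both HER2-positive ones.

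**Figure D4:**
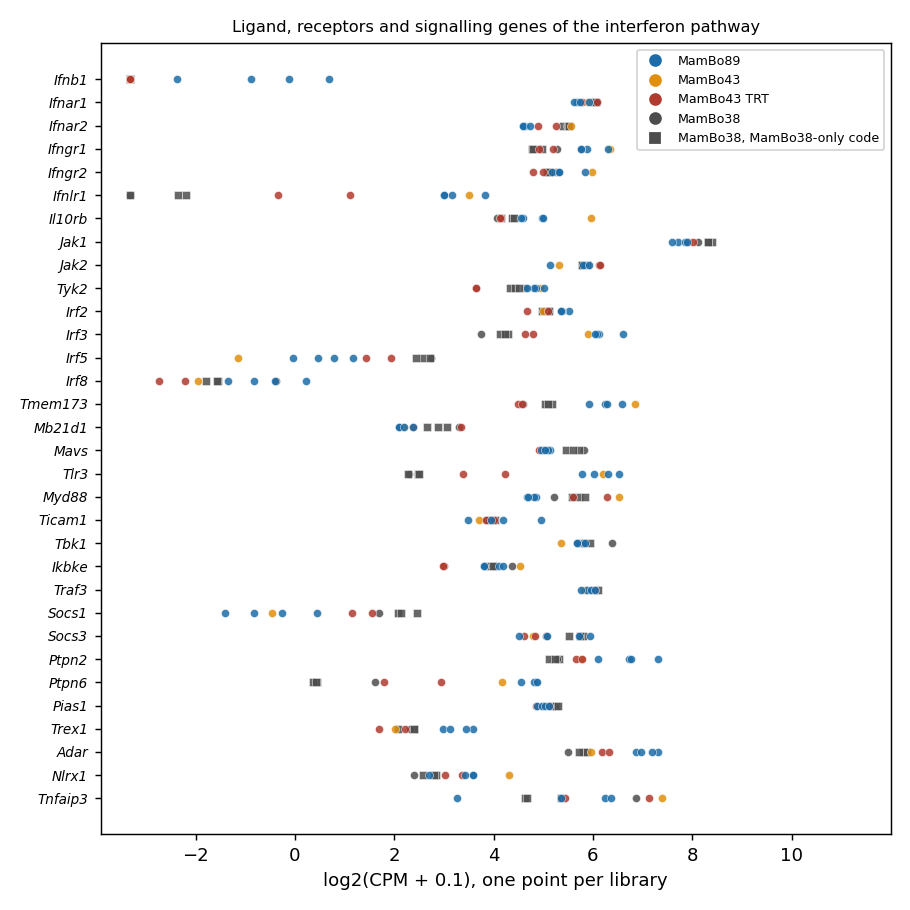
Levels of the 32 tested ligand, receptor, signalling, sensor and regulator genes of the pathway list, on the x axis as log2(CPM + 0.1), with 1 point per library coloured by group and squares for the MamBo38 libraries with the MamBo38-only code. Ifnb1 has points above 0 counts in MamBo89 alone, Tlr3 in MamBo38 lies at 4.77 to 5.57 CPM against 54.8 to 91.9 CPM in MamBo89, and Socs1, Irf5 and Ifnlr1 also separate these lines.

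Over the 59 tested genes of the pathway list, 20 were called lower (33.9%) and 9 higher (15.3%) in MamBo38 against MamBo89, where 22% and 19.9% of all tested genes were. Of the 20 lower calls, 11 were other interferon-induced genes and 4 were negative regulators. The 9 higher calls were Irf5 (2.02), Socs1 (2.64), Nlrc5 (3.35), Gbp4 (3.94), Gbp9 (1.42), Ifitm1 (2.41), Ifitm3 (1.12), Sp100 (2.05) and Epsti1. Epsti1 had no count in MamBo89 and 8 to 21 counts a library in MamBo38. In the AG3 library Ifitm3 was at 607 CPM, against 119 to 212 in the other MamBo89 libraries and 375 to 710 in MamBo38. Sp100 was at 5.11 CPM in AG3, against 0.0461 to 0.349 in the other MamBo89 libraries and 5.73 to 6.36 in MamBo38. Socs1 is a feedback inhibitor of the kinases, and Nlrc5 drives MHC class I genes. Nlrc5 was at 4.77, 2.304, 4.54 and 1.26 CPM in MamBo89, 8.73 in MamBo43, 24.9 and 30.4 in MamBo43 TRT and 35.2, 29.4, 36.4 and 30.2 in MamBo38, and like Ifi47 it was high in both HER2-negative groups. Socs1 was higher in both of these groups as well. It was at 0.729, 0.276, 0.4659 and 1.26 CPM in MamBo89 and 0.627 in MamBo43. In MamBo43 TRT it was at 2.11 and 2.83 CPM, and in MamBo38 at 4.14, 3.12, 4.296 and 5.42. After trastuzumab in MamBo43, 9 of the 59 were called higher (15.3%) and 16 lower (27.1%), against 13.6% and 15.5% of all tested genes. The higher calls were Irf5, Socs1, Nlrc5, Parp10, Slfn5, Gbp4, Gbp5, Gbp6 and Ifi204, of which Slfn5 and Gbp5 had no count in untreated MamBo43. Gbp5 reached 12 and 82 counts after withdrawal and at 60 days. In MamBo43 against MamBo89 5 were called higher (8.47%, against 11% of all tested genes) and 11 lower (18.6%, against 7.86%). In MamBo43 TRT against MamBo38 6 were called higher, the same 10.2% as over all tested genes, and 3 lower (5.08%, against 10.2%). In MamBo38 against MamBo43 10 were called higher (16.9%, against 17.4%) and 13 lower (22%, against 18.5%).

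Counted over the 5 comparisons among the 4 groups, 1 member was called in none, 4 in 1, 10 in 2, 15 in 3, 11 in 4 and 1, Gbp3, in all 5. Of the Gbp3 calls, that in MamBo38 against MamBo43 was lost in 8 of 18 alternative settings and that in MamBo43 TRT against MamBo43 in 12 of 18.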

How the data were processed

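RNA sequencing of 11 libraries was analysed from a table of raw counts per gene. As the methods and the submitters' processing notes give it, the authors read TruSeq libraries in single-end mode at 75 bases, aligned them with STAR 2.5, counted them with RSEM 1.3.0 on mm10 and deposited whole-number counts without normalization; the annotation is not given in the sources used here. RSEM shares reads among copies by estimate, so near-identical members are uncertain. The authors used DESeq2 in their own analysis.

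Groups came from the labels. Counts were fitted in R 4.3.3 with edgeR 4.0.16 (TMM, filterByExpr with a minimum count of 10 and total of 15, glmQLFit, glmQLFTest, prior count 0.125), as 4 groups, by HER2 status, or as 8 subgroups for trastuzumab and AG3. Adjusted p values are Benjamini-Hochberg over all tested genes, and the SE is the absolute log2 fold change over the square root of F. DESeq2 1.42.0 was an alternative. Levels of 3 counts or fewer are at the floor; ratios of summed counts carry 95% intervals for counting error only. Libraries held 17040454 to 27127662 counts; both the number of libraries and, for members at a few counts, depth limit precision. In simulated data with 200 genes changed 8-fold, edgeR recovered 95.5% in MamBo38 against MamBo89 and 86.5% in MamBo43 TRT against MamBo43. Of the unchanged genes it called 14 and 15. The recovery does not cover smaller changes or genes at a few counts, so it gives no power for the members not called.

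All members called in a comparison of the 4 groups are given by library, and called members with the largest absolute log2 fold change lead. Only some of the pathway genes that were called are named, and the others are given as counts. 1 gene of the pathway list is not reported here. Members and lists were chosen with earlier results of these data known. Gene positions are those of GENCODE M21 (GRCm38), and shared windows are 75-base exon stretches also found in another gene. Libraries of a group were checked for duplicates by a chi-square test of their counts, and none was found.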

Additional observations from a re-analysis of the deposited data

Results flagged for a closer look

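Some levels stood apart from the rest of their group of 4 by the Dixon test, in 7 of the 83 sets of a member and a group that were tested; chance flags about 1 in 20. In MamBo89 this was Bst2 in the withdrawn library, at 266 CPM against 163 to 179 CPM in the others. In MamBo38 all 6 were values of the untreated library with the library code shared by all other lines. It was high for Irf1 (68.2 CPM against 46.4 to 50.0), Ifit3 (7.42 against 1.11 to 2.18), Oasl1 (6.14 against 0.835 to 1.39), Rsad2 (2.40 against 0.151 to 0.481) and Gbp3 (3.68 against 1.43 to 1.77), and low for Gbp2 (9.54 against 14.7 to 15.6).

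The change with trastuzumab differed between lines for some members, by an edgeR test of the difference itself. Between MamBo43 and MamBo89, 8 of the 42 members (19%) differed, against 24.5% of tested genes. The change was larger in MamBo43 by 3.26 on the log2 scale for Ifi47 and by 2.42 for Isg15. It was more negative in MamBo43 for Cmpk2 (-2.69), Iigp1 (-2.55), Oasl1 (-2.37), Parp9 (-1.66), Samd9l (-1.66) and Dtx3l (-1.17). Between MamBo43 and MamBo38, 3 members (7.14%) differed, against 25.2% of tested genes, by 2.69 for Isg15, 2.61 for Ifi47 and -1.09 for Parp9. Members thus differed no more often than other genes. Each line had a single untreated library in these differences, and adjusted p values lay between 0.03004 and 0.09997.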

How the results depend on the processing

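MamBo38 against MamBo89 gave 28 to 37 called members under every alternative run, against 36 here, and only 34 members could be tested with at least 10 counts in every library. The number called moved by over 1.5 times in 6 cases. In MamBo43 TRT against MamBo43 it was 7 with only the groups compared in the fit, against 12. In MamBo43 TRT against MamBo38 it was 10 with the shared library code alone and 18 without the 60-day library, against 28. In MamBo38 against MamBo43 it was 14 with the code as a covariate and 11 with the shared library code alone, against 23. By HER2 status it was 7 with the tumor of origin as a covariate, against 29, and 5 members then turned from lower to higher: Gbp7 (0.84), Lgals3bp (0.74), Gbp3 (0.50), Xaf1 (0.44) and Oasl2 (0.23 on the log2 scale), none of them called. Leaving out each library in turn gave 36 to 37 called members for MamBo38 against MamBo89, 9 to 17 for MamBo43 TRT against MamBo43, 15 to 23 for MamBo43 against MamBo89, 18 to 31 for MamBo43 TRT against MamBo38, 20 to 29 for MamBo38 against MamBo43 and 25 to 35 by HER2 status. No direction of a called member turned in these fits or with another tool, scaling or filter. Members at a few counts, such as Iigp1 and Cmpk2 in MamBo38, are limited by depth. No paired analysis was run, as the labels give no replicate numbers. Matching of libraries by trastuzumab schedule was not tried.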
